A study of Mus musculus with 27 samples.

Results

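The genes described here are 39 interferon-induced genes, a set that cells switch on when interferon reaches them or when they sense the nucleic acid of a virus. Each was read on the Affymetrix Mouse Gene ST array from the probe set that names that gene alone, and where a gene had several such probe sets the brightest was taken. Of the 39, 35 had such a probe set, 1 each, among 19938 genes read the same way. Isg15, Gbp2 and Igtp lay only on probe sets shared with another symbol and Ifi44 had none, so these 4 are given no values. No filter on low values was applied, and all 35 genes entered every test.

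The arrays came from a study of the conversion of mouse fibroblasts to induced cardiomyocytes by the 5 factors of the HNGMT cocktail (Tbx5, Mef2c, Gata4, Nkx2.5 and Hand2), delivered by lentivirus under a promoter that doxycycline switches on. There were 9 groups of 3 cultures, all collected at Day 3. In mouse embryonic fibroblasts (MEFs, from embryos of mixed background) the 6 groups were no transcription factor (0TF) or HNGMT, each with DMSO vehicle, with SB431542 (SB, an inhibitor of the TGFβ type I receptors) at 0.5 µM, or with TGFβ1 at 2 ng/mL. In adult cardiac fibroblasts (CFs) the 3 groups were HNGMT with DMSO, with SB at 5 µM or with TGFβ1 at 2 ng/mL. Per the protocol in the labels, cultures carried the rtTA lentivirus and a Troponin T-GCaMP reporter lentivirus and were kept in medium with 2 µg/mL doxycycline, with SB, TGFβ1 or DMSO added the day before induction. The labels name the 0TF cultures as empty vector in one field, as without factor treatment in another, and mention non-transduced MEFs in the extraction text, so what virus they received is not settled. HNGMT cultures received the 5 factor viruses, so the factors and the added virus cannot be told apart. The protocol text of the CF samples is the one written for MEFs.

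Interferons bind receptors at the cell surface, whose Janus kinases set off a signal to the nucleus. A complex that holds Stat2 and Irf9 then binds the interferon-stimulated response element (ISRE) in front of its target genes. The products sense viral RNA and DNA, block viral translation, budding and replication, or amplify the response, and fibroblasts keep a low tonic level of the programme through interferon β that they make themselves.

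The ISRE is where that complex binds, so the DNA just upstream of the transcription start is shown for members that differed in the arrays described here. Sequences are from RefSeq (build GRCm38.p6), 5′ to 3′ on the strand of the gene, the 160 bases that end right before the annotated start. Capitals mark the core letters GAAANNGAAA, or TTTCNNTTTC on the other strand, where overlapping matches join into a longer run. Ifit1, Ifit3 and Rsad2 are classic antiviral effectors, Slfn5 and Gbp3 were among the members that fell furthest with TGFβ1, Bst2 was called lower with TGFβ1 in 0TF but not in HNGMT MEFs, and Slfn2 was called lower in neither.

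Ifit1 (chr19:34640729-34640888, plus strand): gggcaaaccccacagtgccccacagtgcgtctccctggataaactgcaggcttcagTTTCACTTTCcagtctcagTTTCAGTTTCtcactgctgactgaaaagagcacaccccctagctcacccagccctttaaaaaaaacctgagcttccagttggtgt
Ifit3 (chr19:34583369-34583528, plus strand): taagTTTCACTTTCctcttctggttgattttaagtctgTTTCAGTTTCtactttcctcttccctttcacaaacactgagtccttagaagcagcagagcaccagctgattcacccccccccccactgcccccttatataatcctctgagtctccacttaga
Rsad2 (chr12:26456453-26456612, minus strand): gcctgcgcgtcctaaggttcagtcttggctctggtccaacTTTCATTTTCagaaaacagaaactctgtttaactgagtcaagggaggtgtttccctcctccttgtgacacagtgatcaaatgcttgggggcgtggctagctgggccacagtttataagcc
Slfn5 (chr11:82951942-82952101, plus strand): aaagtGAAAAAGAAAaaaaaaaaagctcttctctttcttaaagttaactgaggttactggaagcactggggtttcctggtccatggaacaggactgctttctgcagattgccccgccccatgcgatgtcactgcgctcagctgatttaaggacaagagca
Gbp3 (chr3:142559884-142560043, plus strand): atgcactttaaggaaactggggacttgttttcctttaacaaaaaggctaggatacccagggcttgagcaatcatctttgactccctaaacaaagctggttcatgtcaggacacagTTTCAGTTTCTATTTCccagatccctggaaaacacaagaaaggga
Bst2 (chr8:71537473-71537632, minus strand): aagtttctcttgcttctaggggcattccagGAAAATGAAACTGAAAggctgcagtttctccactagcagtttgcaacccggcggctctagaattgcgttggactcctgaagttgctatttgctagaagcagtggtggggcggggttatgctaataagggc
Slfn2 (chr11:83064952-83065111, plus strand): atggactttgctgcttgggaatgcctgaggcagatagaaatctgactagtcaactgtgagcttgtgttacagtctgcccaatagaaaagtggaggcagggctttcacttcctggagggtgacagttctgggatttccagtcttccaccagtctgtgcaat

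Of the 35 measured members, 26 had an entry in the RefSeq promoter table, and 9 of the 26 (34.6%) held the ISRE letters in the 250 bases before the start, against 3.4% of the 15614 measured genes with an entry. The 9 were Bst2, Gbp3, Ifit1, Ifit3, Irgm1, Rsad2, Slfn5, Slfn8 and Stat2. In Ifit1 the first base of the 2 matches lay 104 and 85 bases before the start, and in Gbp3 the overlapping matches began 45 and 39 bases before it, at the upstream one of its annotated starts. The letters TTCNNNGAA, which read the same way on either strand (the gamma-activated sequence, GAS), were in 3 of the 26 (11.5%), against 7.71% of measured genes. A match is a description of the letters, not of a bound site. Dhx58, Gm4951, Iigp1, Mx1, Parp9, Parp14, Rtp4, Usp18 and Zbp1 had no entry.

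Levels below are the deposited log2 values, which are read for each gene across cultures and not between genes. MEF and CF arrays lay on different levels as deposited, with array medians over all probe sets of 7.83 to 7.91 and 7.36 to 7.43, so no level is compared between the cell types. Hand2, 1 of the 5 factors, was at 11.57 to 11.77 in the 9 HNGMT MEF cultures and at 8.77 to 9.30 in the 9 without factors, so the factor labels held for it in MEFs. The other factors did not show the labels this clearly. With DMSO, Nkx2-5 was at 9.05 to 9.16 without and 9.03 to 9.23 with HNGMT, and Gata4 at 8.30 to 8.56 and 8.56 to 9.02. Mef2c was lower with HNGMT (10.43 to 10.52 and 9.83 to 10.02), as was Tbx5 (10.33 to 10.48 and 9.37 to 9.54). Whether these probe sets read the delivered factors was not tested. All 8 fibroblast markers listed were above the median gene in every MEF group. In CFs, 7 or 8 of the 8 were, and 7 or 8 of 9 endothelial markers were too, against 0 or 1 of 9 in the MEF groups. CF cultures thus carried endothelial markers, and their part in the results was not tested. In these bulk samples, fewer cells of a type and less RNA per cell cannot be told apart.

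Tests were made with limma, with p-values adjusted over the 19938 genes by the Benjamini-Hochberg method. A gene is called changed where the adjusted p was below 0.05 and the log2 fold change was 0.58 or more in size (1.5-fold), or 0.32 or more in CFs, after the thresholds of the study's methods. DMSO cultures serve as the control of several comparisons, so those comparisons are set side by side and not counted against each other.

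**Figure D1:**
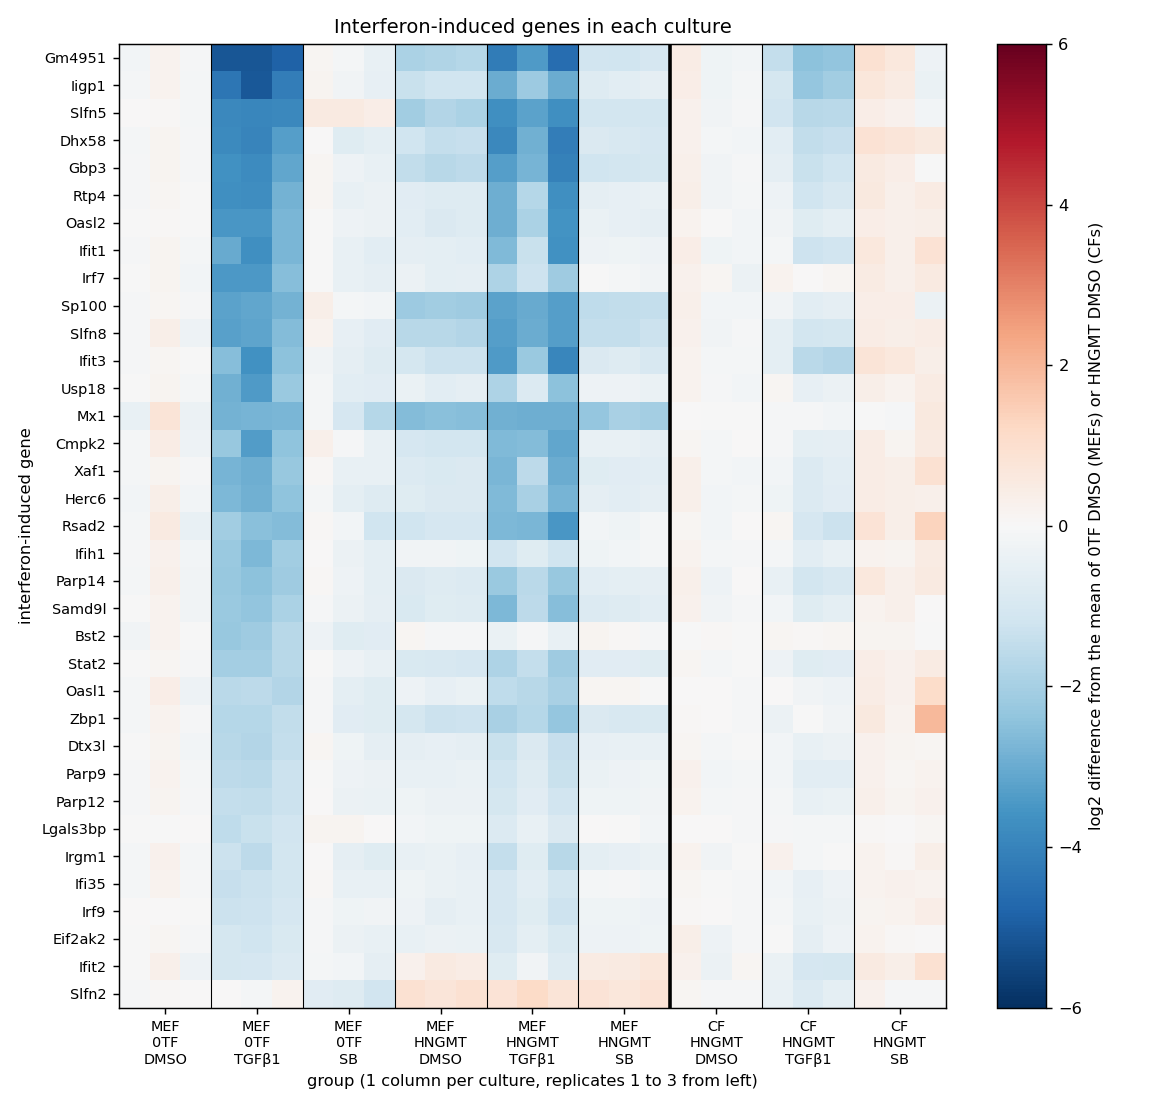
Heat map of the 35 measured interferon-induced genes (rows) in the 27 cultures (columns, 3 replicates per group, MEFs left and CFs right of the thick line). Colour is the log2 difference from the mean of the 0TF DMSO cultures for MEFs and of the HNGMT DMSO cultures for CFs; nearly all rows are blue in the 3 0TF TGFβ1 cultures, Slfn2 is not, and the blue is paler in CFs.

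TGFβ1 lowered nearly the whole set in MEFs without factors. Of the 35 members, 34 were called lower and 0 higher with TGFβ1 than with DMSO, where 6.19% of all genes were called lower and 4.21% higher. In all 34 every TGFβ1 culture lay below every DMSO culture, which held for 22.1% of all genes, and the count was 34 whichever culture was left out. The median member changed by -2.39 on the log2 scale, a 5.25-fold fall, while the median of all genes was 0.05. The members made up 17 of the 100 genes that fell furthest. The mean over the 35 members was 11.36 ± 0.19 (SD, n = 3) with DMSO and 8.96 ± 0.24 (SD, n = 3) with TGFβ1. The second DMSO culture was the highest of its group for 33 members, with a mean of 11.58 against 11.27 and 11.23. With TGFβ1 the third culture was the highest for 32 members, with a mean of 9.21 against 8.91 and 8.74.

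The GTPases that interferon induces, which attack the vacuoles of intracellular pathogens, fell furthest as a group, with 4 of 4 called and a median of -4.02. Gm4951 was at 11.77, 12.12 and 11.87 in the DMSO cultures and at 6.80, 6.79 and 7.08 in the TGFβ1 cultures (log2 fold change -5.03 ± 0.21 (SE), adjusted p = 8.72e-13), a 32.7-fold difference and the second largest fall of all genes tested. Iigp1, a GTPase that acts on parasite vacuoles, was at 11.45, 11.78 and 11.42 with DMSO and 7.19, 6.46 and 7.43 with TGFβ1 (log2 fold change -4.53 ± 0.23 (SE), adjusted p = 1.39e-11). Gbp3, a guanylate-binding protein, was at 11.14, 11.39 and 11.16 and 7.59, 7.44 and 8.12 (log2 fold change -3.51 ± 0.23 (SE), adjusted p = 6.28e-10). In all of these the 2 groups were far apart, by more than 15 times the SE of the fit. Irgm1, which regulates the other GTPases, moved least of the 4 (-1.33 ± 0.20, SE). Gm4951 and Iigp1 belong to a family of similar genes, and how far their probe sets share signal was not tested.

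Among the sensors of viral nucleic acid, 4 of 4 were called lower. Dhx58, the RNA helicase LGP2, was at 11.13, 11.44 and 11.20 with DMSO and at 7.42, 7.29 and 7.96 with TGFβ1 (log2 fold change -3.70 ± 0.25 (SE), adjusted p = 8.23e-10). Ifih1, the RNA sensor MDA5, was at 11.40, 11.70 and 11.31 and 9.22, 8.79 and 9.40 (log2 fold change -2.33 ± 0.16 (SE), adjusted p = 9.1e-10). The DNA and Z-RNA sensor Zbp1 changed by -1.64, and Eif2ak2, the kinase PKR that halts translation, by -1.05, the smallest fall of the 4. The signal factors that carry the response forward fell too, 3 of 3. Irf7, the factor that drives the later wave of interferon genes, was at 11.68, 11.90 and 11.56 with DMSO and 8.28, 8.28 and 9.15 with TGFβ1 (log2 fold change -3.15 ± 0.22 (SE), adjusted p = 1.26e-09). Stat2 changed by -1.91 and Irf9 by -1.18, so both of these parts of the ISRE-binding complex fell less than Irf7.

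All 11 antiviral effectors were called lower, with a median of -2.69. Rtp4 was at 12.04, 12.22 and 12.07 with DMSO and 8.41, 8.40 and 9.28 with TGFβ1 (log2 fold change -3.41 ± 0.33 (SE), adjusted p = 1.04e-07). Oasl2, a relative of the enzymes that activate RNase L, was at 13.14, 13.25 and 13.16 and 9.70, 9.70 and 10.45 (log2 fold change -3.23 ± 0.28 (SE), adjusted p = 2.08e-08). Of the Ifit proteins, which bind viral RNA and block its translation, Ifit1 was at 12.90, 13.15 and 12.85 and 9.93, 9.27 and 10.21 (log2 fold change -3.16 ± 0.37 (SE), adjusted p = 1.04e-06), and Ifit3 changed by -2.88. None of these 3 effectors with values per culture came near overlap, and the DMSO cultures lay closer together than the TGFβ1 cultures. Ifit2 moved least of the effectors, from 10.25, 10.59 and 9.94 to 9.21, 9.25 and 9.46 (log2 fold change -0.95 ± 0.16 (SE), adjusted p = 6.72e-05), and its groups still did not overlap. Mx1, a GTPase that traps viral nucleoproteins, was at 9.12, 10.32 and 9.21 with DMSO and only 6.72, 6.75 and 6.82 with TGFβ1 (log2 fold change -2.79 ± 0.30 (SE), adjusted p = 3.96e-07). Bst2, tetherin, which holds budding virions to the cell, changed by -2.03, and Rsad2, viperin, which disturbs viral RNA synthesis, by -2.39. Oasl1, the nucleotide kinase Cmpk2 and Samd9l, a restriction factor of poxviruses, changed by -1.65, -2.69 and -2.16.

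Usp18, which takes Isg15 off proteins and restrains the receptor, and Herc6, a ligase that attaches Isg15, changed by -2.83 and -2.66. Parp9, Parp12 and Parp14, enzymes of ADP-ribosylation, and Dtx3l, the ubiquitin ligase that pairs with Parp9, were all called, from -2.29 for Parp14 to -1.41 for Parp12. Sp100, a component of PML nuclear bodies, was at 9.82, 10.01 and 9.83 with DMSO and 6.70, 6.75 and 7.04 with TGFβ1 (log2 fold change -3.06 ± 0.11 (SE), adjusted p = 2.26e-13). Xaf1, Lgals3bp and Ifi35 changed by -2.66, -1.34 and -1.27.

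The Schlafen genes, a family tied to immune quiescence and viral restriction, did not move as one. Slfn5 was at 11.23, 11.27 and 11.09 with DMSO and 7.33, 7.26 and 7.35 with TGFβ1 (log2 fold change -3.88 ± 0.10 (SE), adjusted p = 2.46e-15), the smallest adjusted p of any member in any comparison. Slfn8 changed by -2.99 ± 0.20 (SE). Slfn2 was at 8.47, 8.62 and 8.58 and 8.59, 8.46 and 8.75, values that overlapped (log2 fold change 0.04 ± 0.11 (SE), adjusted p = 0.797), and it was the 1 member of 35 not called. After TGFβ1, Gm4951, Mx1, Slfn8 and Sp100 lay near 6.69 to 6.81, the range of the lower quartile of all genes on the MEF arrays. The table gives no detection calls, so how far these genes lay above background there cannot be read. The mean of the 8 fibroblast markers was 13.30 to 13.34 with DMSO and 12.70 to 12.82 with TGFβ1, and its part in the result was not tested.

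Of the 26 members with a promoter entry, the 9 that held the ISRE letters changed by a median of -2.88 (range -3.88 to -1.33) and 9 were called lower. The 17 without the letters changed by a median of -1.65 (range -3.23 to 0.04), and 16 were called. The 9 members without an entry are in neither group. Gm4951, Iigp1, Dhx58 and Rtp4, with some of the largest falls of all members, are among those left out. The ranges overlap for most of their length, and no test was made of this split.

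**Figure D2:**
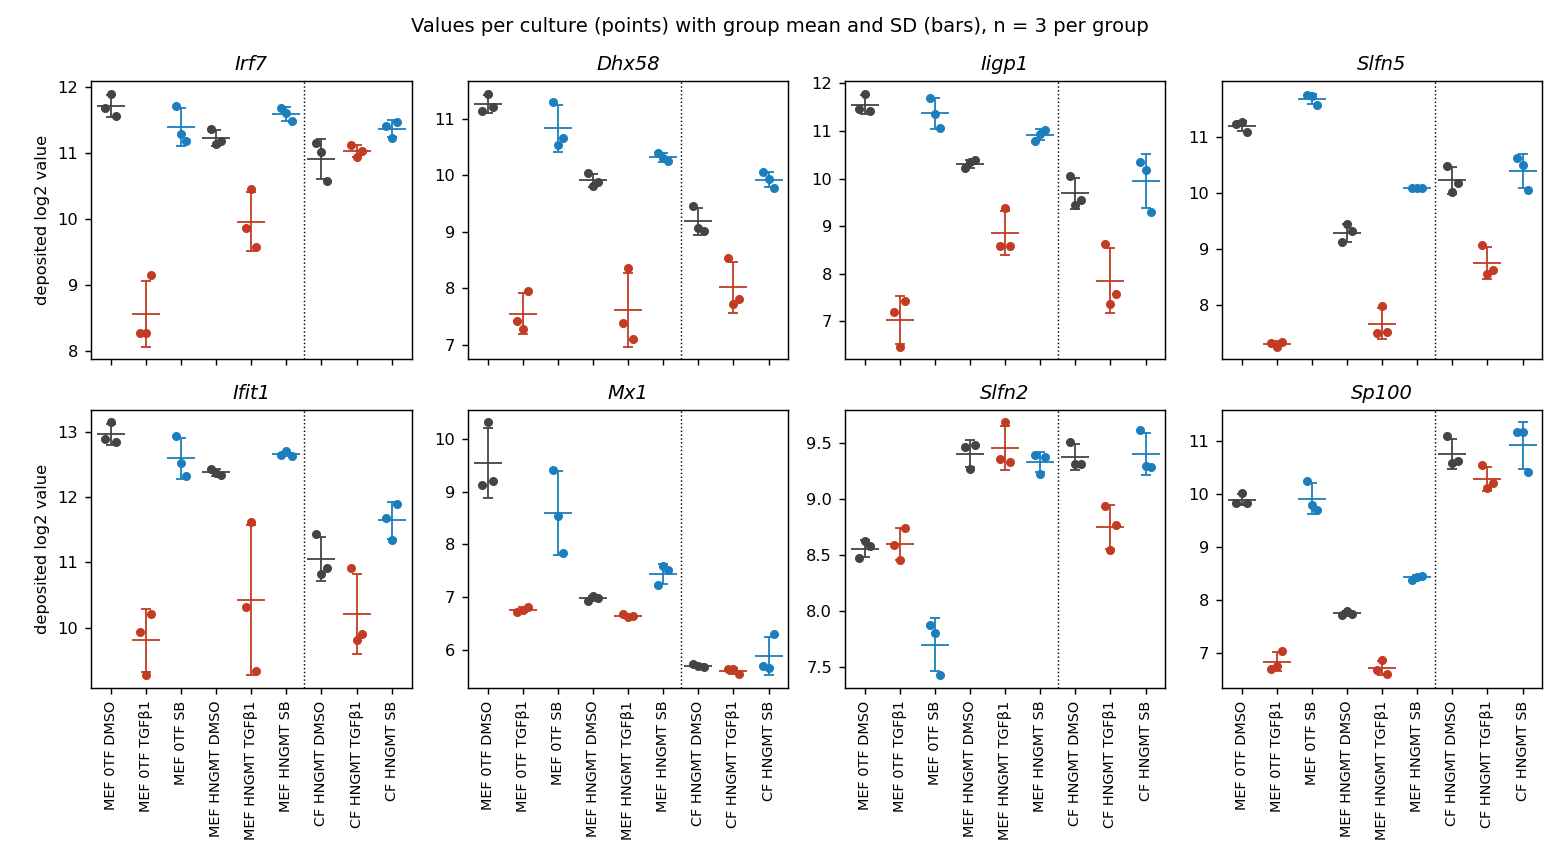
Deposited log2 values (vertical axis, own scale per gene) of 8 interferon-induced genes in the 9 groups (horizontal axis); points are cultures, bars the group mean and SD (n = 3), grey DMSO, blue SB and red TGFβ1, with CFs right of the dotted line. In 0TF MEFs the TGFβ1 cultures of all genes but Slfn2 lie below the DMSO cultures, and for Mx1 and Sp100 the HNGMT DMSO cultures are already low.

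In MEFs with HNGMT, TGFβ1 lowered 28 of 35 members and raised 0, where 3.54% of all genes were called lower and 2.23% higher, and the median member changed by -1.21 (2.31-fold) against 0.02 for all genes. Again 34 members had every TGFβ1 culture below every DMSO culture, as did 16.2% of all genes. All 28 were among the 34 called in 0TF MEFs (100% of the 28, 82.4% of the 34). Of the 35 members only Slfn2 was outside those 34, so this overlap was nearly fixed beforehand, although the comparisons share no culture. The mean over the members was 10.54 ± 0.03 (SD, n = 3) with DMSO and 9.34 ± 0.42 (SD, n = 3) with TGFβ1.

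Dhx58 fell furthest here, from 10.04, 9.81 and 9.88 with DMSO to 7.39, 8.35 and 7.11 with TGFβ1 (log2 fold change -2.29 ± 0.25 (SE), adjusted p = 8.62e-07). Gm4951 was at 10.03, 10.11 and 10.21 and 7.74, 8.54 and 7.36 (log2 fold change -2.24 ± 0.21 (SE), adjusted p = 1.07e-07). Rtp4 was at 11.44, 11.32 and 11.34 and 9.17, 10.38 and 8.41 (log2 fold change -2.05 ± 0.33 (SE), adjusted p = 7.69e-05). In each of these the second TGFβ1 culture was the highest of its group, yet it still lay below all 3 DMSO cultures.

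The effectors Oasl2, Ifit3 and Ifit1 followed. Oasl2 was at 12.53, 12.33 and 12.42 with DMSO and 10.24, 11.29 and 9.62 with TGFβ1 (log2 fold change -2.04 ± 0.28 (SE), adjusted p = 1.17e-05). Ifit3 was at 12.17, 11.93 and 11.98 and 9.87, 11 and 9.34 (log2 fold change -1.96 ± 0.32 (SE), adjusted p = 8.3e-05). Ifit1 was at 12.44, 12.37 and 12.34 and 10.32, 11.62 and 9.34 (log2 fold change -1.96 ± 0.37 (SE), adjusted p = 0.000344). The DMSO cultures of each lay within 0.3 log2 units, while the TGFβ1 cultures of Ifit1 spanned more than 2 log2 units. The second HNGMT TGFβ1 culture was the highest of the 3 for 32 of the 35 members, with a mean over the members of 9.79 against 9.24 and 8.98 in the other cultures. Without it 31 members were called lower, and without the third culture 25.

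7 members were not called in HNGMT MEFs. Slfn2 again overlapped, at 9.47, 9.27 and 9.48 with DMSO and 9.36, 9.69 and 9.33 with TGFβ1 (log2 fold change 0.05 ± 0.11 (SE), adjusted p = 0.793). Bst2 was at 11.83, 11.67 and 11.68 and 11.32, 11.65 and 11.27 (log2 fold change -0.31 ± 0.15 (SE), adjusted p = 0.139). Mx1 was at 6.93, 7.02 and 6.98 and 6.69, 6.63 and 6.64 (log2 fold change -0.32 ± 0.30 (SE), adjusted p = 0.474), so it was already near the lower quartile of all genes in the DMSO cultures. Irf9, Ifi35, Lgals3bp and Eif2ak2 had adjusted p-values of 0.000159, 0.00358, 0.000313 and 0.00233 but folds under 1.5. The mean of the fibroblast markers was 12.77 to 12.80 with DMSO and 12.01 to 12.12 with TGFβ1, and its part in the result was not tested.

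The size of the TGFβ1 effect was then tested between 0TF and HNGMT MEFs as the difference of the 2 log2 fold changes, over the 12 cultures concerned. For 34 of 35 members the difference was above 0, a smaller fall with HNGMT, as it was for 42% of all genes, and for 27 that difference was called (fold 1.5 or more), where 4.68% of all genes were called in that direction. 0 members were called the other way, where 2.77% of genes were. The median difference over the members was 1.055 on the log2 scale, against -0.03 for all genes. Iigp1 changed by -4.53 without and -1.46 with HNGMT, a difference of 3.06 ± 0.32 (SE; adjusted p = 7.71e-07). For Gm4951 the difference was 2.80 ± 0.29 (adjusted p = 7.37e-07), and for Mx1 2.46 ± 0.42 (adjusted p = 2e-04). Slfn5 differed by 2.26 ± 0.14 (adjusted p = 1.71e-09) and Sp100 by 2.03 ± 0.16 (adjusted p = 2.28e-08). Mx1, Sp100 and Slfn8 ended near the lower quartile of all genes in both TGFβ1 groups, so for these the difference restates their lower start with HNGMT and DMSO. Other members started lower as well. With DMSO, Slfn5, Gbp3 and Dhx58 had means of 9.30, 9.65 and 9.91 with HNGMT against 11.20, 11.23 and 11.26 without. Their differences hold that lower start too, and its share in them was not tested. The differences of Irf7, Bst2 and Ifih1 were 1.88, 1.71 and 1.54.

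The 8 members without a called difference were Ifit1, Ifit2, Ifit3, Oasl1, Rsad2, Samd9l, Irgm1 and Slfn2. Of these Ifit2 changed by nearly the same amount in either setting, -0.95 ± 0.16 without and -1.00 ± 0.16 with HNGMT (SE), a difference of -0.05 ± 0.22 (adjusted p = 0.911). For Ifit1 the difference was 1.21 ± 0.52 (adjusted p = 0.0931), an estimate as large as that of some called members with a wider error.

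**Figure D3:**
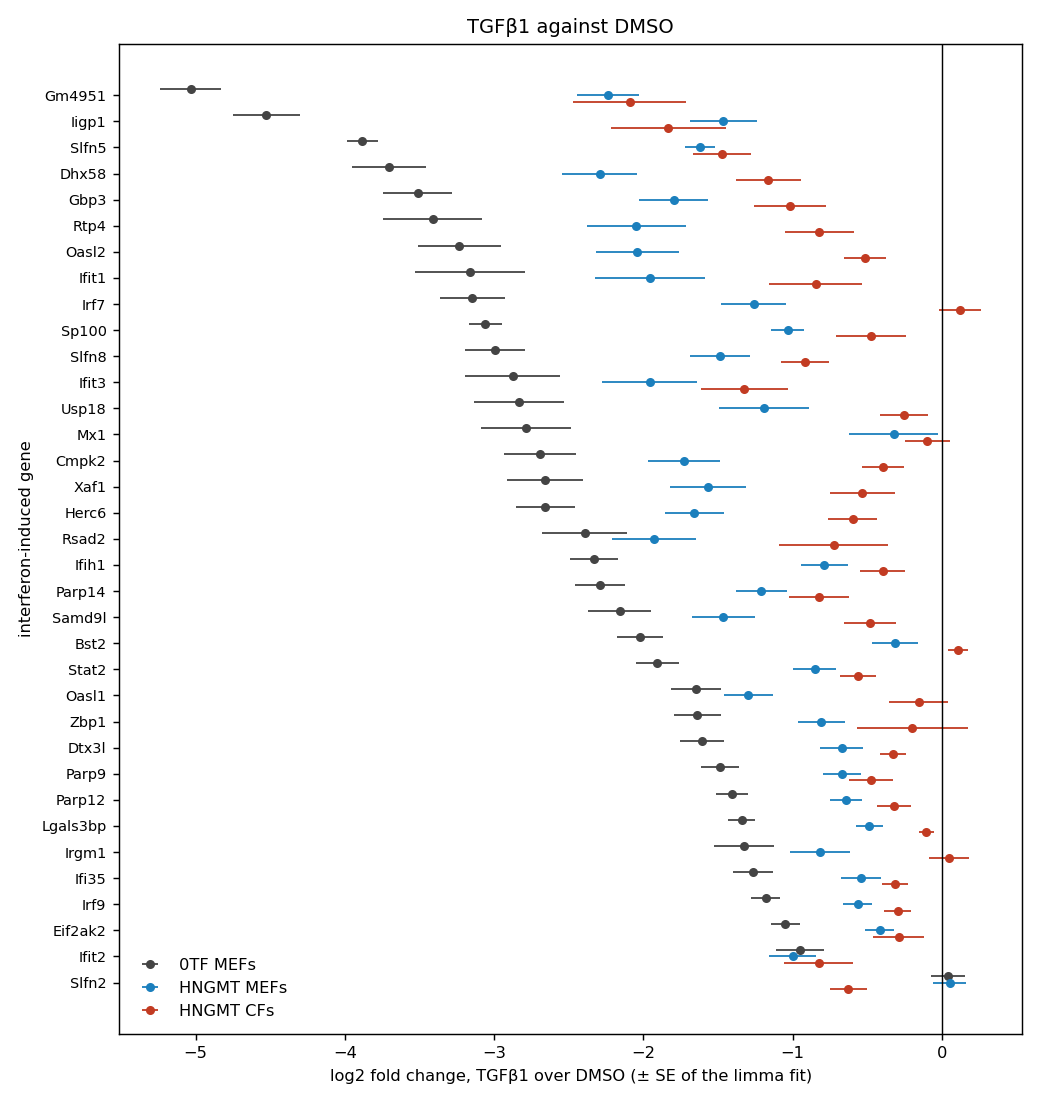
Log2 fold change of TGFβ1 over DMSO (horizontal axis, with the SE of the limma fit) for each of the 35 members (vertical axis, ordered by the change in 0TF MEFs), in 0TF MEFs (grey), HNGMT MEFs (blue) and HNGMT CFs (red). The points lie left of 0 for 34, 34 and 32 of 35 members, with medians of -2.39, -1.21 and -0.48.

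In CFs with HNGMT, TGFβ1 lowered 10 members and raised 0, at the smaller fold asked of CFs. Over all genes 2.2% were called lower and 3.11% higher. The median member changed by -0.48 (1.40-fold), 32 of 35 had a log2 fold change below 0 (52.1% of all genes did), and 20 had every TGFβ1 culture below every DMSO culture, where 16.5% of all genes did. At an unadjusted p under 0.05, 24 members were lower, against 11.3% of all genes. 9 of the 10 were also called in HNGMT MEFs (90% of the 10, 32.1% of the 28) and in 0TF MEFs (26.5% of the 34), with no shared culture, and the exception was Slfn2. With 28 and 34 of the 35 members called in MEFs, a large overlap was fixed beforehand.

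Of the GTPases, 3 of 4 were called. Gm4951 was at 10.27, 9.56 and 9.64 with DMSO and 8.38, 7.37 and 7.44 with TGFβ1 (log2 fold change -2.09 ± 0.38 (SE), adjusted p = 0.0138). Iigp1 was at 10.06, 9.44 and 9.56 and 8.63, 7.36 and 7.58 (log2 fold change -1.83 ± 0.39 (SE), adjusted p = 0.0261). Gbp3 was at 9.85, 9.32 and 9.46 and 9.02, 8.21 and 8.35 (log2 fold change -1.02 ± 0.24 (SE), adjusted p = 0.0427). In all 3 genes the first culture of each group was the highest, and the highest TGFβ1 culture still lay below the lowest DMSO culture. Irgm1 was at 11.05, 10.62 and 10.80 and 11.09, 10.70 and 10.82 and overlapped (log2 fold change 0.05 ± 0.13 (SE), adjusted p = 0.912).

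Slfn5 was at 10.49, 10.02 and 10.18 with DMSO and 9.08, 8.57 and 8.63 with TGFβ1 (log2 fold change -1.47 ± 0.19 (SE), adjusted p = 0.00333). Ifit3 was at 11.60, 11.28 and 11.24 and 10.81, 9.74 and 9.60 (log2 fold change -1.32 ± 0.29 (SE), adjusted p = 0.032). Dhx58 was at 9.46, 9.08 and 9.02 and 8.54, 7.72 and 7.81 (log2 fold change -1.16 ± 0.22 (SE), adjusted p = 0.0157). In each of these the groups did not overlap, and the first TGFβ1 culture was again the highest. Slfn8, Parp14 and Stat2 were called as well, at -0.92, -0.83 and -0.56. Slfn2, not called with TGFβ1 in MEFs, was at 9.51, 9.31 and 9.31 and 8.94, 8.55 and 8.77 in CFs and did not overlap (log2 fold change -0.63 ± 0.12 (SE), adjusted p = 0.0199).

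The same-numbered DMSO and TGFβ1 cultures of CFs deviated together, with correlations of their deviations of 0.65, 0.55 and 0.12, and with the replicate number as a block in the CF fit 17 members were called lower, Rtp4 and Oasl2 among them. Without the block the count rested on few cultures. The first culture was the highest of its group for 32 members with DMSO and for 34 with TGFβ1. Without the first TGFβ1 culture, 20 members were called lower, and without the second or the third 1. Leaving out a DMSO culture gave 2 (the first), 6 (the second) and 3 (the third). The mean of the endothelial markers moved with TGFβ1 as well, from 10.63 to 10.70 with DMSO to 10.14 to 10.19. Only 1 of the 9 markers, Kdr, was called, and the log2 fold changes ran from -1.22 to 0.03 (median -0.45). The part of this list in the result was not tested. The mean of the fibroblast list was at 10.97 to 11.06 and 10.89 to 11.04, though its markers moved in both directions. Of the 8, Col3a1 was called higher (0.74), and Lum (-1.62) and Dcn (-0.61) were called lower.

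The dose of TGFβ1 was the same in CFs and MEFs, so the effect was compared between the HNGMT cultures of either cell type in a fit of all 27 arrays, each effect being taken within its own cell type. 8 members fell less in CFs and 1 fell more, where 2.68% and 1.7% of all genes were called. Irf7 was at 11.15, 11.02 and 10.58 with DMSO and 11.13, 10.95 and 11.04 with TGFβ1 in CFs (log2 fold change 0.12 ± 0.14 (SE), adjusted p = 0.737), against a change of -1.26 in HNGMT MEFs, and the difference was 1.39 ± 0.30 (SE; adjusted p = 0.00223). Oasl2 differed by 1.52 ± 0.37 (adjusted p = 0.0057) and Dhx58 by 1.13 ± 0.36 (adjusted p = 0.0374). Cmpk2, Oasl1, Herc6, Samd9l and Irgm1 were the others that fell less. Slfn2 fell more in CFs (-0.68 ± 0.17, adjusted p = 0.00894). For Gm4951, Iigp1 and Slfn5, the members that fell furthest in CFs, the differences were 0.14 ± 0.42, -0.37 ± 0.44 and 0.15 ± 0.21 (SE) and none was called. The count of 8 was 13 without the second MEF TGFβ1 culture. It was 5 without the first or the third MEF TGFβ1 culture, the first CF TGFβ1 culture, or the second or the third DMSO culture of either cell type. The call of Slfn2 was lost without the second TGFβ1 culture of either cell type.

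The factors on their own also went with lower values of the set. With DMSO, 18 members were called lower and 1 higher in HNGMT than in 0TF MEFs, where 4.51% and 4.56% of all genes were called. The median member changed by -0.76 (1.69-fold), and in 32 members every HNGMT culture lay below every 0TF culture, which held for 22.4% of all genes. Mx1 was at 9.12, 10.32 and 9.21 without and 6.93, 7.02 and 6.98 with HNGMT (log2 fold change -2.57 ± 0.30 (SE), adjusted p = 1.31e-06). Sp100 was at 9.82, 10.01 and 9.83 and 7.70, 7.79 and 7.74 (log2 fold change -2.15 ± 0.11 (SE), adjusted p = 3.04e-11). Slfn5 was at 11.23, 11.27 and 11.09 and 9.13, 9.45 and 9.32 (log2 fold change -1.90 ± 0.10 (SE), adjusted p = 4.76e-11). The 0TF cultures of Mx1 spread over more than 1 log2 unit, while those of Sp100 and Slfn5 lay close together.

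Gm4951, Slfn8 and Gbp3 completed the 6 largest falls. Gm4951 was at 10.03, 10.11 and 10.21 with HNGMT (log2 fold change -1.81 ± 0.21 (SE), adjusted p = 9.56e-07). Slfn8 was at 9.70, 10.13 and 9.49 without and 8.11, 8.11 and 8 with HNGMT (log2 fold change -1.70 ± 0.20 (SE), adjusted p = 1.54e-06). Gbp3 was at 9.74, 9.55 and 9.64 with HNGMT (log2 fold change -1.58 ± 0.23 (SE), adjusted p = 1.9e-05). Of the roles, 3 of 4 GTPases, 6 of 11 effectors, 2 of 4 sensors and 1 of 3 signal factors, Stat2, were called lower. Slfn2 was the 1 member called higher, at 9.47, 9.27 and 9.48 against 8.47, 8.62 and 8.58 (log2 fold change 0.85 ± 0.11 (SE), adjusted p = 5.39e-06). Bst2 stood near its 0TF level, with a log2 fold change of -0.01 ± 0.15 (SE) and cultures that overlapped. Ifih1 changed by -0.23 ± 0.16 (SE) and was not called, though every HNGMT culture lay below every 0TF culture. Without the second 0TF DMSO culture, which was the highest of its group for 33 members, 2 members were called higher. The mean of the fibroblast list was 13.30 to 13.34 without and 12.77 to 12.80 with HNGMT. The mean of the cardiac muscle list was 7.91 to 8.03 without and 9.64 to 9.77 with HNGMT, with 5 of 7 markers called higher. The part of either in the result was not tested.

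With SB in the medium, 6 members were lower and 3 higher with HNGMT, where 4.81% and 5.04% of all genes were called, and the median was -0.23. The 6 lower members, Slfn5, Sp100, Mx1, Slfn8, Gm4951 and Gbp3, were all among the 18 called with DMSO (33.3% of the 18), with no shared culture. Slfn5 was at 11.74, 11.72 and 11.57 without and 10.09, 10.09 and 10.10 with HNGMT (log2 fold change -1.59 ± 0.10 (SE), adjusted p = 4.69e-10). Sp100 was at 10.23, 9.79 and 9.70 and 8.38, 8.43 and 8.45 (log2 fold change -1.49 ± 0.11 (SE), adjusted p = 4.08e-09). Mx1 was at 9.42, 8.54 and 7.83 and 7.23, 7.59 and 7.52 (log2 fold change -1.15 ± 0.30 (SE), adjusted p = 0.00427), with the 0TF cultures again far apart. In none of these 3 genes did the groups overlap. Slfn8 was at 9.98, 9.28 and 9.12 and 8.35, 8.36 and 8.47 (log2 fold change -1.07 ± 0.20 (SE), adjusted p = 0.000257). Gm4951 was at 12.05, 11.78 and 11.49 and 10.77, 10.73 and 10.93 (log2 fold change -0.96 ± 0.21 (SE), adjusted p = 0.000817). These too stood apart, with the 0TF cultures above the HNGMT cultures. Slfn2 was higher with HNGMT, at 9.39, 9.23 and 9.38 against 7.88, 7.80 and 7.43 (log2 fold change 1.63 ± 0.11 (SE), adjusted p = 1.03e-09). Ifit2 and Bst2 were the other 2 called higher, by 0.82 and 0.63. Beside the members, 4 of 5 adipocyte markers were called lower with HNGMT (median -2.60), 7 of 7 cardiac muscle markers higher (median 2.19) and 5 of 8 fibroblast markers lower (median -0.65), and their part in the result was not tested.

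With TGFβ1 the factors went with higher values instead. Of the 35 members, 8 were called higher with HNGMT than without and 0 lower, where 6.37% and 3.88% of all genes were called, and the median was 0.27. Iigp1 was at 7.19, 6.46 and 7.43 without and 8.59, 9.38 and 8.58 with HNGMT (log2 fold change 1.82 ± 0.23 (SE), adjusted p = 2.55e-06). Bst2 was at 9.45, 9.59 and 10.10 and 11.32, 11.65 and 11.27 (log2 fold change 1.70 ± 0.15 (SE), adjusted p = 4.89e-08). Irf7 was at 8.28, 8.28 and 9.15 and 9.86, 10.46 and 9.58 (log2 fold change 1.39 ± 0.22 (SE), adjusted p = 3.96e-05). In these the highest 0TF culture lay below the lowest HNGMT culture. Ifih1 was at 9.22, 8.79 and 9.40 and 10.34, 10.75 and 10.26 (log2 fold change 1.32 ± 0.16 (SE), adjusted p = 1.74e-06), and Gm4951 at 6.80, 6.79 and 7.08 and 7.74, 8.54 and 7.36 (log2 fold change 0.99 ± 0.21 (SE), adjusted p = 0.000671). Slfn2 was at 8.59, 8.46 and 8.75 and 9.36, 9.69 and 9.33 (log2 fold change 0.86 ± 0.11 (SE), adjusted p = 4.45e-06). In these 3 as well the highest 0TF culture lay below the lowest HNGMT culture. Usp18, whose cultures overlapped, and Lgals3bp were called too, at 1.12 and 0.63. Mx1 and Sp100, furthest apart with DMSO, differed by -0.11 ± 0.30 and -0.12 ± 0.11 (SE). Without the second HNGMT TGFβ1 culture, 7 members were called higher and 1 lower, against 8 and 0 with all cultures. With TGFβ1, too, 5 of 7 cardiac muscle markers were called higher with HNGMT (median 0.71) and 4 of 8 fibroblast markers lower (median -0.64), and their part in the result was not tested.

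**Figure D4:**
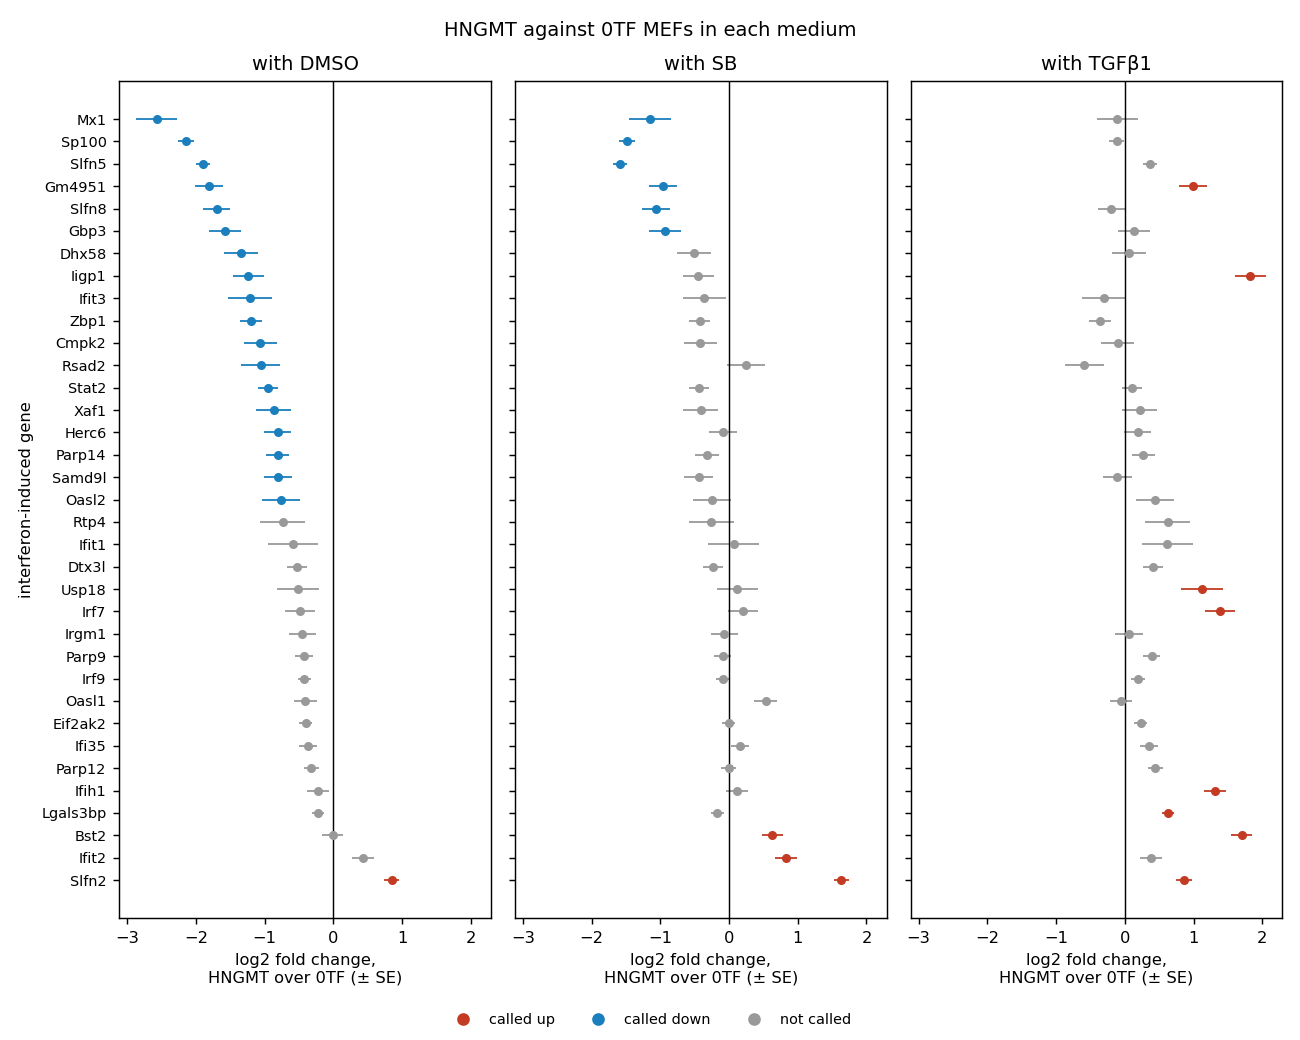
Log2 fold change of HNGMT over 0TF MEFs (horizontal axis, with the SE of the limma fit) for the 35 members (vertical axis, ordered by the change with DMSO) in medium with DMSO, SB or TGFβ1; red is called up, blue called down, grey not called. The counts called down and up are 18 and 1 with DMSO, 6 and 3 with SB, and 0 and 8 with TGFβ1.

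Few members were called changed with SB. In 0TF MEFs 2 were called lower and 0 higher, where 1.13% and 1.26% of all genes were called, and the median member changed by -0.27. Of the 35 log2 fold changes 32 were below 0, as were 53.4% over all genes. In 5 members every SB culture lay below every DMSO culture, 14.3% of the members against 14.7% of all genes. Slfn2 was at 8.47, 8.62 and 8.58 with DMSO and 7.88, 7.80 and 7.43 with SB (log2 fold change -0.86 ± 0.11 (SE), adjusted p = 1.75e-05). Mx1 was at 9.12, 10.32 and 9.21 and 9.42, 8.54 and 7.83, groups that overlapped (log2 fold change -0.95 ± 0.30 (SE), adjusted p = 0.0368). The third SB culture of Mx1 lay lowest. Slfn5 was higher with SB in every culture, at 11.74, 11.72 and 11.57 against 11.23, 11.27 and 11.09, short of the fold of 1.5 (log2 fold change 0.48 ± 0.10 (SE), adjusted p = 0.00231). Sp100 was at 10.23, 9.79 and 9.70 with SB (log2 fold change 0.02 ± 0.11 (SE), adjusted p = 0.953). The second DMSO culture was the highest of its group for 33 members. The first SB culture was the highest of its group for all 35 members. Without it 6 members were called lower, and without the second SB culture, the third SB culture or the second DMSO culture 1. Adipocyte markers stood at a list mean of 9.72 to 9.84 with SB and 7.26 to 7.30 with DMSO in these cultures, 4 of 5 above the median gene against 0 of 5, and their part in the result was not tested.

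In HNGMT MEFs 3 members were called higher with SB and 0 lower, where 0.391% and 0.431% of all genes were called. The median was 0.25, and 33 of 35 log2 fold changes were above 0, as were 55.5% over all genes. In 27 members every SB culture lay above every DMSO culture, which held for 11.1% of all genes. Slfn5 was at 9.13, 9.45 and 9.32 with DMSO and 10.09, 10.09 and 10.10 with SB (log2 fold change 0.80 ± 0.10 (SE), adjusted p = 4.77e-05). Sp100 was at 7.70, 7.79 and 7.74 and 8.38, 8.43 and 8.45 (log2 fold change 0.68 ± 0.11 (SE), adjusted p = 0.000637). These groups did not overlap in either gene. Gm4951 was at 10.03, 10.11 and 10.21 and 10.77, 10.73 and 10.93 (log2 fold change 0.69 ± 0.21 (SE), adjusted p = 0.0493), and this call was lost without any 1 of the 6 cultures, which left 2 members called. Rsad2 had the largest estimate, 0.86 ± 0.28 (SE), and missed the threshold (adjusted p = 0.0812).

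In CFs, at the higher dose of SB, 0 members were called in either direction, where 0.0451% of all genes were called higher and 0.196% lower. All 35 log2 fold changes were above 0 (48.7% over all genes), with a median of 0.34 and a highest of 0.92 for Zbp1. At an unadjusted p under 0.05, 14 members were higher and 0 lower, where 2.39% and 3.83% of all genes were, and 16 had every SB culture above every DMSO culture, against 3.8% of all genes. Zbp1 was at 7.30, 7.26 and 7.18 with DMSO and 7.84, 7.47 and 9.18 with SB, so the third SB culture carried its change. That culture also stood apart in the endothelial list, with a mean of 9.17 against 10.81 and 10.82 in the other SB cultures. Without it, too, 0 members were called. Slfn5 was at 10.49, 10.02 and 10.18 with DMSO and 10.63, 10.49 and 10.06 with SB (log2 fold change 0.16 ± 0.19 (SE), adjusted p = 0.976). Sp100 was at 11.08, 10.58 and 10.61 and 11.16, 11.17 and 10.41 (log2 fold change 0.15 ± 0.23 (SE), adjusted p = 0.979). Each overlapped its DMSO group, only through the SB culture that stood apart in the endothelial list. The other SB cultures lay above every DMSO culture, for Slfn5 barely (10.4932 against 10.4925). The paper lists these genes as raised by SB in MEFs and CFs with HNGMT.

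The SB effect was compared between HNGMT and 0TF MEFs, where the dose was the same. The difference was above 0 for 35 of 35 members and 55.4% of all genes, with a median of 0.63 against 0.01 for all genes, and it was called for 5, where 0.893% of all genes were called in that direction and 1.06% in the other. The 5 were Mx1 (1.42 ± 0.42, SE; adjusted p = 0.0469), Slfn2 (0.78 ± 0.16; adjusted p = 0.00316), Sp100 (0.66 ± 0.16; adjusted p = 0.0124), Oasl1 and Zbp1. Without the first 0TF SB culture 10 members were called, and without the third 2. The count was 3 without the second 0TF SB culture, the second 0TF DMSO culture, any 1 HNGMT SB culture, or the second or the third HNGMT DMSO culture. In this difference 5 of 5 adipocyte markers were called lower (median -2.50) and 5 of 7 cardiac muscle markers higher (median 0.71), and their part in the result was not tested.

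The rest of the pathway was read from lists chosen for their role. Of the interferon ligands, 0 of 8 measured were called by limma in any of the 12 comparisons. Of their 96 values, 8 were at an unadjusted p under 0.05, against 32.5% of the values of all genes. Ifng and Ifnk passed the adjusted p but not the fold. Ifng changed by 0.16 with TGFβ1 in 0TF MEFs (adjusted p = 0.0269), and that effect differed by -0.245 with HNGMT (adjusted p = 0.0249). Ifnk changed by -0.15 with HNGMT in medium with TGFβ1 (adjusted p = 0.0118). Ifnb1, interferon β, was at 6.25 to 6.36 in 0TF MEFs with DMSO and 6.34 to 6.39 with TGFβ1, below the lower quartile of all genes, where without detection calls a low level cannot be told from background. Of 14 receptors, kinases and signal factors, TGFβ1 lowered Irf1, a factor that both interferon types induce, in 0TF MEFs (log2 fold change -0.75 ± 0.08 (SE), adjusted p = 1.71e-07), changed none past the threshold in HNGMT MEFs (before adjustment, 5 had a p under 0.05 upward and 3 downward, where 25% and 16.7% of all genes did), and lowered Irf8 (-0.92 ± 0.07) and Irf2 (-0.57 ± 0.10) in CFs. Over all genes, 6.19% were called lower with TGFβ1 in 0TF MEFs and 2.2% in CFs. The receptor chains Ifnar1 and Ifnar2 and the factor Irf3, which starts interferon β transcription, were not called in any of these settings. Ifnar1 was at 11.24, 11.29 and 11.34 with DMSO and 11.30, 11.25 and 11.23 with TGFβ1 in 0TF MEFs (log2 fold change -0.03 ± 0.04 (SE), adjusted p = 0.536). The cultures of Ifnar1 overlapped. Ifnar2 was at 11.94, 12 and 12.05 and 12.10, 12.11 and 12.05 (log2 fold change 0.08 ± 0.04 (SE), adjusted p = 0.117), and Irf3 at 9.82, 9.95 and 9.92 and 9.95, 9.99 and 9.97 (log2 fold change 0.07 ± 0.04 (SE), adjusted p = 0.203).

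Of 14 sensors and adaptors outside the members, TGFβ1 lowered 4 in 0TF MEFs, where 6.19% of all genes were called lower. These were the toll-like receptors Tlr3 and Tlr4, the RNA sensor Ddx58 (RIG-I) and the ligase Trim25, which activates it. Tlr3 was at 10.03, 10.25 and 9.97 with DMSO and 8.40, 8.45 and 8.72 with TGFβ1 (log2 fold change -1.56 ± 0.12 (SE), adjusted p = 4.27e-09). None of the 14 was called in HNGMT MEFs. Before adjustment, 3 had a limma p under 0.05 upward and 7 downward there, where 25% and 16.7% of all genes did. The share lower was thus above that of all genes. In CFs Aim2 alone was called, higher (0.37 ± 0.07, SE), where 3.11% of all genes were called higher. Before adjustment, 1 of the 14 had a limma p under 0.05 upward in CFs and 6 downward, where 10.4% and 11.3% of all genes did. Among 10 inhibitors of the pathway and nucleic acid enzymes, Socs3, which blocks cytokine receptor signalling, rose by 0.76 in 0TF and 0.76 in HNGMT MEFs. In CFs it changed by -0.25 ± 0.07 (SE) and was not called, and the difference from HNGMT MEFs was -1.01 ± 0.12 (SE; adjusted p = 2.38e-06). The nucleotide hydrolase Samhd1 and the RNA-editing enzyme Adar were called lower in 0TF MEFs, at -1.63 and -1.03. In HNGMT MEFs they changed by 0.17 and -0.28, neither called, and the difference from 0TF MEFs was called for both (1.80 and 0.75). In CFs Samhd1 changed by 0.06, not called, and Adar was called lower at -0.33. Samhd1 was at 10.20, 10.16 and 10.31 with TGFβ1 in 0TF MEFs, against 11.79, 11.99 and 11.78 with DMSO.

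A further list of 37 measured interferon-induced genes outside the members went the same way. TGFβ1 lowered 26 and raised 1 in 0TF MEFs (median -1.22), where 6.19% of all genes were called lower. It lowered 14 and raised 1 in HNGMT MEFs (median -0.27; 3.54% of all genes lower), and lowered 9 and raised 1 in CFs (median -0.35; 2.2% of all genes lower). Oas2, which makes the messenger that activates RNase L, was at 10.67, 10.62 and 10.69 with DMSO and 7.44, 7.30 and 7.40 with TGFβ1 in 0TF MEFs (log2 fold change -3.27 ± 0.09 (SE), adjusted p = 5.75e-15). Ifi205 was the exception, at 10.57, 10.73 and 10.59 with DMSO, 12.20, 12.08 and 12.16 with TGFβ1 (log2 fold change 1.51 ± 0.09 (SE), adjusted p = 1.62e-10) and 12.39, 12.30 and 12.24 with SB (log2 fold change 1.68 ± 0.09 (SE), adjusted p = 2.44e-10), so it stood higher with either agent. In HNGMT against 0TF MEFs with DMSO, 17 of the 37 were lower and 0 higher (median -0.52), where 4.51% and 4.56% of all genes were called.

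**Figure D5:**
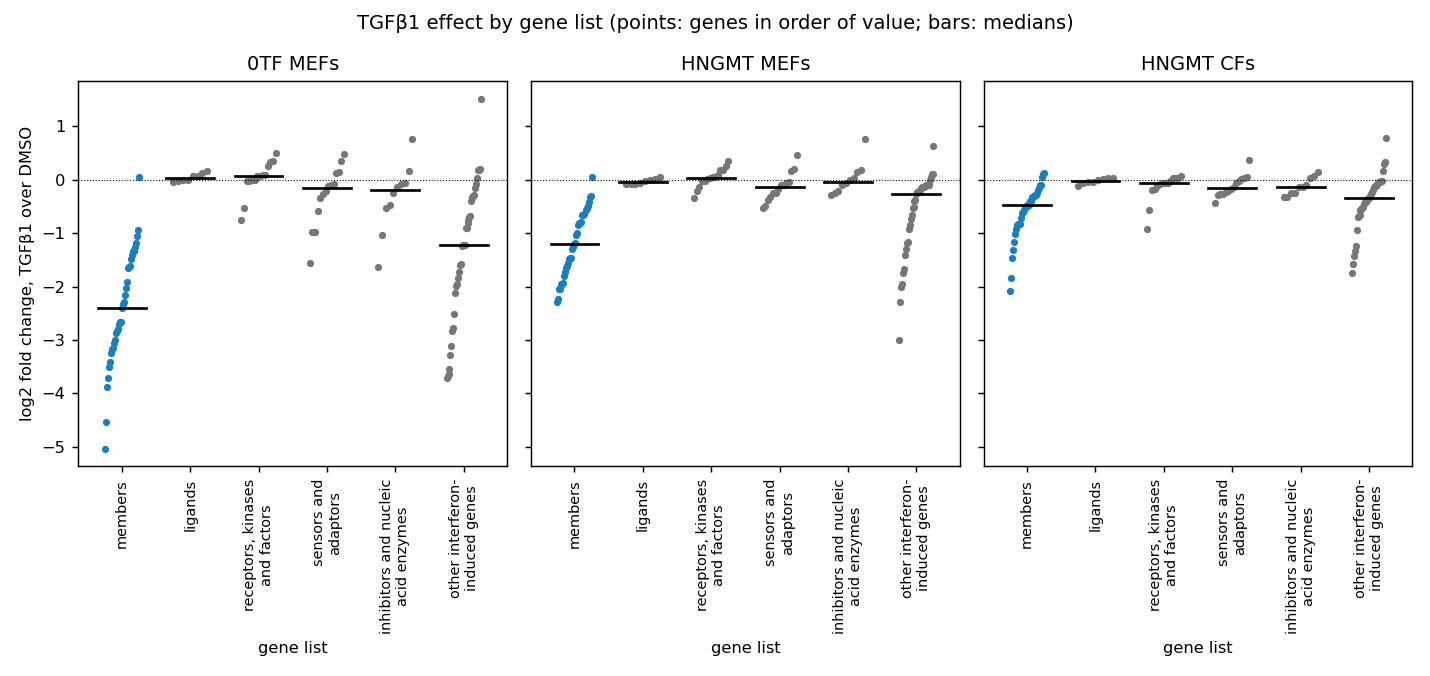
Log2 fold change of TGFβ1 over DMSO (vertical axis) for each gene of 6 lists (horizontal axis) in 0TF MEFs, HNGMT MEFs and HNGMT CFs; points are genes in order of value and black bars the medians. The 8 ligands lie along 0 in all 3 panels, while the members and the other interferon-induced genes reach far below it.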

How the data were processed

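Total RNA of 27 cultures was hybridised to Affymetrix Mouse Gene ST arrays, 3 cultures in each of 9 groups. The deposited table holds log2 expression values per probe set, made by the authors with Affymetrix Microarray Suite and PartekGS per their methods (MAS5 per the labels). The background correction, the normalization and the version are not given in the sources used here, and the medians of MEF and CF arrays lie apart, so levels were not compared between cell types. The number of arrays limits the precision. The labels call the cultures independent biological replicates.

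Of 35556 probe sets, 21789 carried 1 gene symbol, 1621 several and 12146 none. For each of the 19938 genes the probe set with the highest mean was kept (999 genes had more than 1). Values were used as deposited and tested with limma 3.58.1 (lmFit and eBayes; R 4.3.3) in 12 comparisons, over the 18 MEF arrays, the 9 CF arrays, or all 27 for the comparison of the TGFβ1 effect between cell types. Calls needed a Benjamini-Hochberg adjusted p under 0.05 and a log2 fold change of at least 0.58 (MEFs and differences of effects) or 0.32 (CFs) in size. The fits were tested on simulated data. The fits have no replicate block. Only between the DMSO and TGFβ1 groups of CFs were all 3 correlations of same-numbered deviations over 0.1, and there the blocked count is given too. Of 45 MEF pairs 9 were over 0.1. In HNGMT MEFs the correlations of DMSO with TGFβ1 were 0.59, 0.52 and -0.01, and those of DMSO with SB 0.46, 0.03 and 0.33. Members and lists were chosen with earlier results of these data known, and no list was tested as a set. Genes given with the value in every culture were, per comparison, the up to 6 called members with the largest change and no overlap, and Slfn5 and Sp100, with Ifnb1, Ifnar1, Ifnar2, Irf3 and up to 4 called genes per pathway list by smallest p as the pool for those named; others were named after their values were seen. Alternatives were a replicate block, all arrays in 1 fit, eBayes with trend and robust, leaving out genes under the 40th percentile, quantile normalization, the mean of a gene's probe sets, no fold threshold, and leaving out each culture in turn. Promoter letters were searched with Python 3.11.15 in the 250 bases before each start, and figures were drawn with matplotlib 3.10.9.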

Additional observations from a re-analysis of the deposited data

Results flagged for a closer look

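The effect of an agent differed between settings, by a test of the difference itself in limma, for 27, 5 and 9 members in the 3 comparisons of effects. Values are given for those of them that the naming rule covers, 13, 3 and 4 members, as log2 differences with 3 cultures per group. For TGFβ1, HNGMT minus 0TF MEFs, the differences were 3.06 for Iigp1, 2.80 for Gm4951, 2.46 for Mx1, 2.26 for Slfn5, 2.03 for Sp100, 1.88 for Irf7, 1.72 for Gbp3, 1.71 for Bst2, 1.54 for Ifih1, 1.5 for Slfn8, 1.41 for Dhx58, 1.36 for Rtp4 and 1.19 for Oasl2, all in the direction of a smaller fall with HNGMT. Mx1, Sp100 and Slfn8 ended near the lower quartile of all genes in both TGFβ1 groups, so their differences restate a lower start with HNGMT. Other members, Slfn5, Gbp3 and Dhx58 among them, started lower with HNGMT as well, and their differences hold that start too. For SB, HNGMT minus 0TF MEFs, they were 1.42 for Mx1, 0.78 for Slfn2 and 0.66 for Sp100. For TGFβ1, CFs minus MEFs with HNGMT, they were 1.52 for Oasl2, 1.39 for Irf7, 1.13 for Dhx58 and -0.68 for Slfn2. No outlier test was made in groups of 3, and cultures that stood apart are given beside results they touch, though not beside each of them.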

How the results depend on the processing

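No named gene that was called, in the main fit or under the setting, changed direction under any setting. No median over the members changed sign by more than the SD of the replicates. Changes of sign in genes called in neither fit were not counted. Of 1387 single values under the settings that keep all cultures, 1370 stayed on their side of the threshold, 10 fell short of it and 7 passed it anew. With 1 culture left out, 1427 of 1530 stayed, 78 fell short, 17 passed anew and 8, all medians over the members, moved by more than the SD of the replicates. Counts of called members that moved by over 1.5 times were these. With the replicate number as a block, TGFβ1 lowered 17 members in CFs, against 10 without the block, and the block moved no other count of calls by over 1.5 times. All 3 same-numbered DMSO and TGFβ1 pairs of CFs correlated over 0.1, as did 1 of the 6 other CF pairs and 9 of 45 in MEFs, and 7 of 18 MEF and 5 of 9 CF arrays correlated best with their own number. The SB difference between HNGMT and 0TF MEFs was called higher for 3 members with all arrays in 1 fit and for 3 with trend and robust, against 5. SB in 0TF MEFs lowered 1 member with trend and robust and 1 with genes under the 40th percentile left out (34 members tested), against 2. Without a fold threshold, HNGMT against 0TF called 2 higher with DMSO and 13 with TGFβ1, and SB in 0TF MEFs called 1 higher and 5 lower. The cause of these moves was not tested, beyond the fewer genes tested or the dropped threshold that the settings themselves bring.

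Leaving out 1 culture at a time, the counts called lower ran from 1 to 20 for TGFβ1 in CFs, 25 to 31 in HNGMT MEFs, 34 to 34 in 0TF MEFs, 1 to 6 for SB in 0TF MEFs, 17 to 18 for HNGMT against 0TF with DMSO, and 0 to 1 with TGFβ1. The counts called higher ran from 1 to 2, 2 to 4 and 7 to 11 for HNGMT against 0TF with DMSO, SB and TGFβ1, from 2 to 10 for the SB difference, 22 to 30 for the TGFβ1 difference between HNGMT and 0TF, and 5 to 13 for that between CFs and MEFs, where the count lower ran from 0 to 1. With 3 cultures a group, CF counts are the least firm. A log2 value near the lower quartile of all genes sets only a rough lower end to a fall, and an adjusted p over 0.05 does not show that values were alike.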
